A study of Mus musculus with 8 samples.

Results

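The collagen and laminin genes, which encode the chains of the fibrillar matrix and of basement membranes, were compared across embryonic germ cells (EGCs), PGC-like cells (PGCLCs), iPGCs and embryonic primordial germ cells (PGCs) of the mouse. Members were chosen by name alone, as every gene symbol made of Col or Lam followed by a chain number in the family's usual form, with the highest-mean entry kept for each gene identifier. The rule found 55 of 20153 gene identifiers, 44 collagen genes and 11 laminin genes. By their usual classes these were 11 fibrillar collagens, 9 basement membrane collagens, 24 other collagens and 11 laminins.

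RNA was sequenced from 8 libraries, 2 in each of 4 groups, and values are FPKM, fragments counted per length of transcript and scaled to the mapped fragments of the library. EGC lines 4 and 7 were pluripotent lines at passage 6 derived from sorted E9.5 PGCs of the Oct4gfpXCD1 strain. Each line gave 1 library from 500 cells. The growth text places EGCs in serum with LIF on MEFs, fibroblast feeder cells that are themselves a source of collagen transcripts, and the labels do not say whether feeder cells were removed before RNA was taken. PGCLCs were grown as aggregates of cells that had first been turned into epiblast-like cells (300 to 500 cells a library), and iPGCs in hanging drops (1500 cells a library). Their source was the BVSC line of embryonic stem cells, at passage 21 and kept in 2i with LIF on a laminin coat. PGCs were endogenous germ cells of E9.5 Oct4gfpXCD1 embryos (about 250 cells a library). Strain, source and passage therefore differ together with the group for the BVSC cells, and passage differs between EGCs and PGCs. The labels call the libraries biological replicates but name no separate cultures or embryos, so p-values measure the spread between these libraries.

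Laminins are trimers of an alpha, a beta and a gamma chain, and they polymerise into the sheet on which a basement membrane is built. Type IV collagen forms the second network of that membrane, and nidogens and perlecan link the networks. Fibrillar collagens, by contrast, are the rope-like collagens of connective tissue and are made mostly by mesenchymal cells. Migrating germ cells move through laminin-rich and fibronectin-rich matrix in the embryo, and mouse embryonic stem cells deposit laminin containing the Lama5 chain.

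Approximate depths were read from the lowest length-scaled FPKM values of genes with 1 transcript, each taken as 1 read. They rest on 32 to 83 genes a library. These depths were 13.1 and 15.7 M reads in EGCs, 7.34 and 14.7 M in PGCLCs, 2.51 and 14.6 M in iPGCs, and 16.6 and 13.8 M in PGCs, so iPGC library 1 was the shallowest. The 9 germ cell markers summed to 212 and 320 FPKM in EGCs, 1605 and 778 in PGCLCs, 769 and 760 in iPGCs, and 621 and 1451 in PGCs, with 1 of them listed at 0 in EGC line 4 and none elsewhere. PGC library 1 stood above PGC library 2 in the sums of blood and endoderm markers, whereas the sum of endothelial markers went the other way. The 5 blood markers with an entry summed to 114 FPKM in PGC library 1 and 5.56 in PGC library 2, and to at most 0.308 in any other library. The 12 endoderm markers summed to 1.60 and 2.96 FPKM in EGCs, 0.380 and 3.54 in PGCLCs, 21.3 and 17.2 in iPGCs, and 171 and 18.3 in PGCs. The 7 endothelial markers summed to 16.4 and 15.4 FPKM in EGCs, 102 and 84.8 in PGCLCs, 27.9 and 25.0 in iPGCs, and 22.1 and 56.5 in PGCs. In PGC libraries 1 and 2, 0 and 5 of these 7 were listed at 0. The endothelial markers at 1 FPKM or more numbered 1 and 1 in EGCs, 3 and 2 in PGCLCs, 2 and 2 in iPGCs, and 2 and 1 in PGCs. Few genes therefore carry these sums, and the sum of PGC library 2 rests on 1 marker. In bulk libraries, fewer cells of a type cannot be told apart from less RNA per cell.

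Laminin transcripts made up most of the family in every library, and most collagen genes were near or at 0. Laminins held 65.4% to 83.1% of the summed FPKM of all 55 members. Only 4 members reached 1 FPKM in all 8 libraries, the laminin genes Lamc1, Lamb1 and Lama1 and the basement membrane collagen gene Col18a1. A further 30 members stayed below 1 FPKM in all 8 libraries, 9 reached it in only 1, and 213 of the 440 values were 0. Col4a4, Col6a1 and Col19a1 were listed at 0 throughout. Genes were tested where at least 2 libraries reached 1 FPKM. That kept 16 of the 55 members, 7 laminins, 3 basement membrane collagens, 4 fibrillar collagens and 2 other collagens, so a low member had to be raised somewhere to be tested at all.

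**Figure D1:**
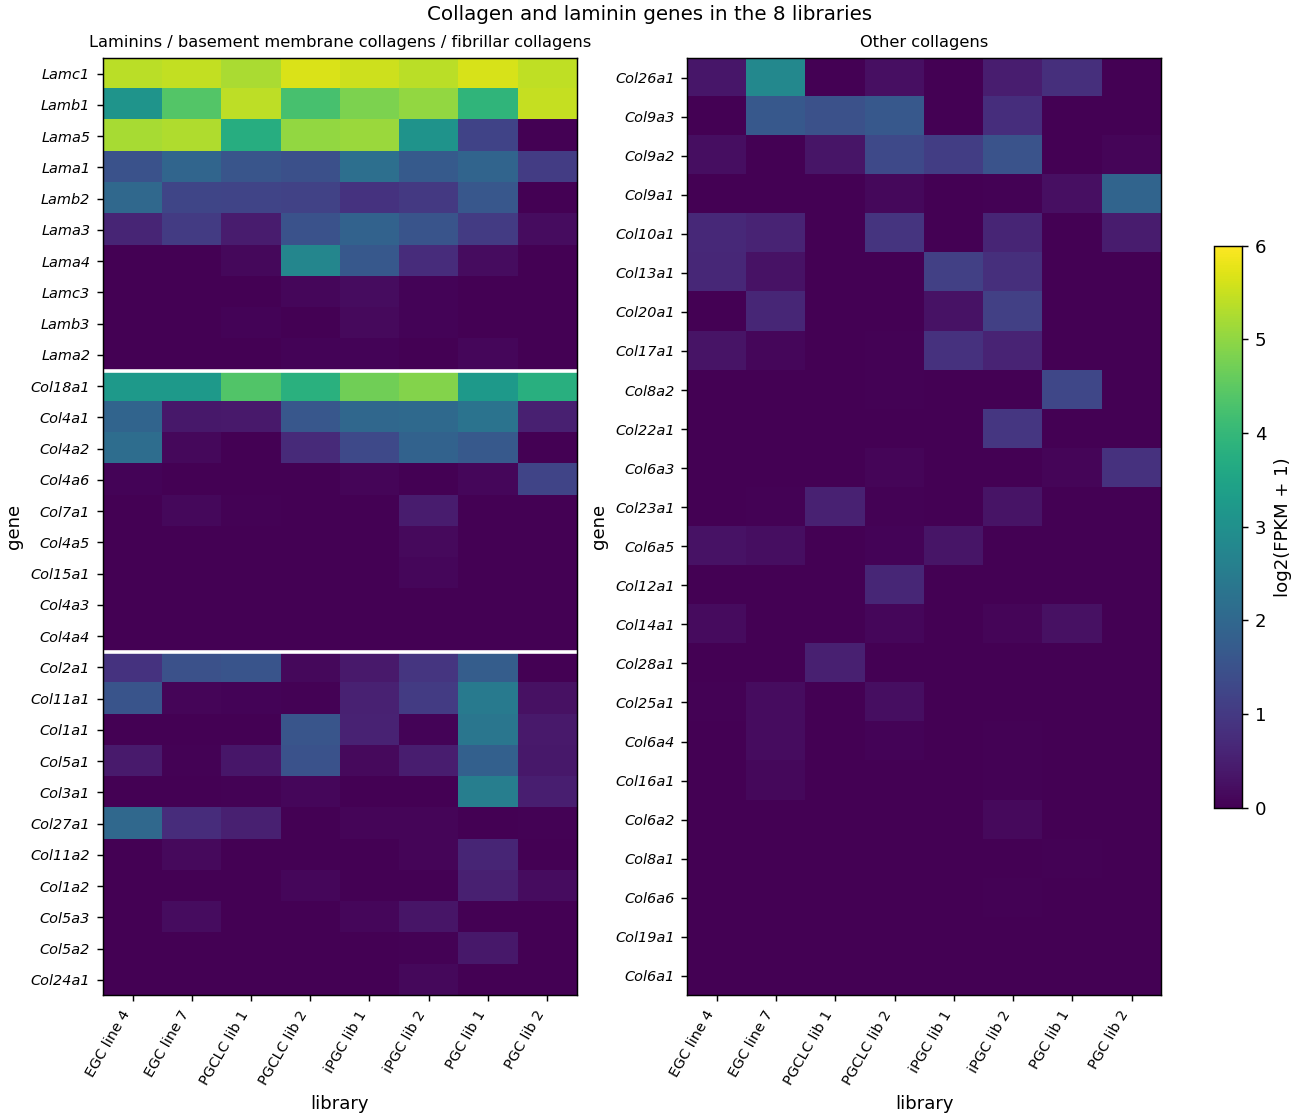
Values of log2(FPKM + 1) for 54 of the 55 collagen and laminin genes (rows) in the 8 libraries (columns), with laminins, basement membrane collagens and fibrillar collagens in blocks on the left and other collagens on the right. Lamc1, Lamb1, Lama5 and Col18a1 carry most of the signal, and Lama5 is dark in both PGC libraries.

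Lamc1, the gamma chain shared by most laminins, was the steadiest member. It was at 40.7 and 42.9 FPKM in EGCs, 36.8 and 49.4 in PGCLCs, 45.5 and 40.4 in iPGCs, and 48.8 and 42.2 in PGCs. All 4 groups overlapped, and the mean over the 8 libraries was 43.3 FPKM with a coefficient of variation of 10.0%. Its range of 0.42 on the log2(FPKM + 1) scale was the smallest among the 662 tested genes whose mean lay within 0.5 of its own on that scale. With equal library medians, however, Lamc1 was placed at a log2 difference of -0.71 ± 0.40 (SE) in PGCLCs and -0.66 ± 0.40 in iPGCs relative to PGCs (limma adjusted p = 0.391 and 0.415). With quantile normalization these differences were -0.31 ± 0.42 and -0.17 ± 0.42 (limma adjusted p = 0.760 and 0.880). How flat its profile looks thus depends on the scaling. The gene lies at chr1:153218922-153332786 (GRCm38, minus strand). Lamc3, a further gamma chain, stayed at or below 0.145 FPKM.

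Among beta chains, Lamb1 was the main one in all libraries, with 71.3% of beta-chain FPKM in EGC line 4 and 87.2% or more in the other 7. It is the beta chain of the first laminins of the embryo. Lamb1 was at 7.59 and 19.9 FPKM in EGCs, 41.1 and 18.0 in PGCLCs, 27.3 and 31.8 in iPGCs, and 14.3 and 43.3 in PGCs. The PGC libraries lay far apart, and the EGC and PGC values overlapped. The log2 difference of EGCs from PGCs was -0.96 ± 0.70 (SE, n = 2 against 2, limma adjusted p = 0.529). Both EGC values lay below both iPGC values, with a log2 difference of -1.18 ± 0.70 (limma adjusted p = 0.597). Lamb2, a beta chain of muscle, nerve and kidney laminins, was at 3.06 and 1.37 FPKM in EGCs, 1.33 and 1.29 in PGCLCs, 0.854 and 0.984 in iPGCs, and 2.09 and 0 in PGCs. Lamb3, the beta chain of epidermal laminin, was never above 0.105 FPKM.

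Of the alpha chains, Lama5 alone passed in a comparison between groups. Lama5, the alpha chain of the laminin that stem cells deposit, was at 36.1 and 38.0 FPKM in EGCs, 12.4 and 31.8 in PGCLCs, 33.5 and 7.44 in iPGCs, and 1.30 and 0.0140 in PGCs. Every library of the other 3 groups lay above both PGC libraries, the EGC lines were close to each other, and the PGCLC and iPGC groups each held a high and a lower library. As means this was 37.1 ± 1.32 FPKM in EGCs, 22.1 ± 13.7 in PGCLCs, 20.5 ± 18.4 in iPGCs, and 0.656 ± 0.907 in PGCs (SD, n = 2 each). By the approximate depths these values rest on about 5390 and 6783 reads in EGCs, 1037 and 5306 in PGCLCs, 956 and 1236 in iPGCs, and 245 and 2.19 in PGCs.

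Lama5 was the only member that passed the test in any of the 6 comparisons between groups. In EGCs it rose by 4.64 ± 0.80 on the log2(FPKM + 1) scale relative to PGCs (SE, 95% interval 2.80 to 6.47, limma adjusted p = 0.0488). This was 1 of 16 members tested, where 0.74% of all 11083 tested genes were called in that comparison. The log2 difference was 3.78 ± 0.80 in PGCLCs (interval 1.95 to 5.61, limma adjusted p = 0.0659) and 3.48 ± 0.80 in iPGCs (interval 1.65 to 5.32, limma adjusted p = 0.0806), neither of which passed. Relative to the median of all tested genes, the differences were 4.57 in EGCs, 3.34 in PGCLCs and 3.02 in iPGCs, and the 3 comparisons share the PGC libraries. The call in EGCs was close to the threshold, and leaving out any 1 of the 8 libraries gave an adjusted p between 0.0584 and 0.236. Without PGC library 1, the log2 difference was 5.23, and without PGC library 2 it was 4.05. Among the other 3 groups Lama5 did not pass, with a log2 difference of 1.16 ± 0.80 for EGCs against iPGCs, 0.86 ± 0.80 for EGCs against PGCLCs and 0.30 ± 0.80 for PGCLCs against iPGCs (limma adjusted p = 0.644, 0.678 and 1). The summed level of 5 markers of epiblast or pluripotent cells was also lowest in PGCs, with 137 and 108 FPKM in EGCs, 141 and 109 in PGCLCs, 129 and 139 in iPGCs, and 42.8 and 48.0 in PGCs. The markers did not all go that way, since their log2 differences from PGCs were positive for 4 and negative for 1 in EGCs and in iPGCs, and positive for 3 and negative for 2 in PGCLCs. Nanog, a pluripotency factor, was at 46.9 and 45.3 FPKM in EGCs, 81.2 and 82.6 in PGCLCs, 73.2 and 90.9 in iPGCs, and 6.69 and 16.1 in PGCs, whereas Sox2, another, was at 10.8 and 17.7 FPKM in EGCs, 19.1 and 17.8 in PGCLCs, 24.6 and 26.8 in iPGCs, and 30.5 and 31.8 in PGCs. Their part in the Lama5 values was not tested.

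Lama5 lies at chr2:180176373-180225859 on the minus strand of GRCm38, with its start at the higher coordinate. The RefSeq promoter window of 250 bases before to 50 bases after the start (GRCm38.p6, chr2:180225810-180226109, minus strand) is shown because this gene carries the contrast with PGCs. Capitals mark GGGCGG, the GC box, on either strand. It occurs 4 times here. At least 1 is held by 26 of 44 windows of collagen and laminin genes (59.1%) and by 35.7% of 32851 RefSeq promoter windows of the same length. The 44 windows belong to 40 members. G and C make up 72.7% of the Lama5 window, beside a median of 52.7% over all windows, and the shares were not adjusted for base content. CCAAT and TATAAA, searched on both strands and present in 37.4% and 13.6% of the 32851 windows, have no match in the Lama5 window. A match is a string in the window and not a measured binding site.
Lama5: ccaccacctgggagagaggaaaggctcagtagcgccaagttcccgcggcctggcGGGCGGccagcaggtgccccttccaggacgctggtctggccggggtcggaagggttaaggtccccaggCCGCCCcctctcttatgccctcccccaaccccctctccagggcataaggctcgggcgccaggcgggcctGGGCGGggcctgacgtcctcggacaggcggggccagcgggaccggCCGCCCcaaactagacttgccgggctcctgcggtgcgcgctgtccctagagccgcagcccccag

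The other alpha chains were lower than Lama5 in EGCs, PGCLCs and iPGCs. In PGCs, Lama1 was above Lama5 in both libraries, and Lama3 was above it in library 2. Lama1, the alpha chain of the earliest embryonic laminin, was at 1.83 and 2.86 FPKM in EGCs, 1.99 and 1.74 in PGCLCs, 3.59 and 2.23 in iPGCs, and 2.80 and 1.09 in PGCs. Its groups overlapped in each comparison with PGCs, and its log2 differences from PGCs ran from 0.02 to 0.45 with an SE of 0.60. Lama3, an epithelial alpha chain, was at 0.529 and 1.05 FPKM in EGCs, 0.362 and 1.84 in PGCLCs, 2.67 and 1.97 in iPGCs, and 1.05 and 0.145 in PGCs. Both iPGC values were above both PGC values, but the log2 difference of 1.11 ± 0.61 did not pass (limma adjusted p = 0.357). Lama4, the alpha chain of vessel walls, was listed at 0 in both EGC lines and was at 0.0973 and 5.78 FPKM in PGCLCs, 2.16 and 0.707 in iPGCs, and 0.148 and 0 in PGCs. Lama2, the muscle alpha chain, was at or below 0.0706 FPKM.

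Because FPKM are per length and a ratio within a library does not depend on how libraries are scaled, the balance of chains was also read as a ratio. Summed alpha-chain FPKM divided by summed gamma-chain FPKM was 0.929 and 0.946 in EGCs, 0.403 and 0.822 in PGCLCs, 0.920 and 0.301 in iPGCs, and 0.109 and 0.0296 in PGCs. Both PGC libraries were the lowest of the 8. Lamc1 gave 96.9% or more of gamma-chain FPKM in every library, so this ratio largely restates the Lama5 and Lamc1 values above. It is not separate support. Beta over gamma was 0.257 and 0.481 in EGCs, 1.15 and 0.385 in PGCLCs, 0.620 and 0.799 in iPGCs, and 0.332 and 1.02 in PGCs, where both EGC ratios lay below both iPGC ratios and the other groups overlapped. Lama5 gave 93.9% and 90.7% of alpha-chain FPKM in EGCs, 83.5% and 77.2% in PGCLCs, 79.8% and 60.3% in iPGCs, and 24.2% and 1.12% in PGCs. In PGCs the main alpha chain was Lama1 instead, with 52.2% and 86.9%. The sums over the 5 alpha genes were 38.5 and 41.9 FPKM in EGCs, 14.9 and 41.2 in PGCLCs, 42.0 and 12.3 in iPGCs, and 5.37 and 1.25 in PGCs. PGC library 1 was the deepest library, and iPGC library 1, with a high alpha sum, the shallowest.

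**Figure D2:**
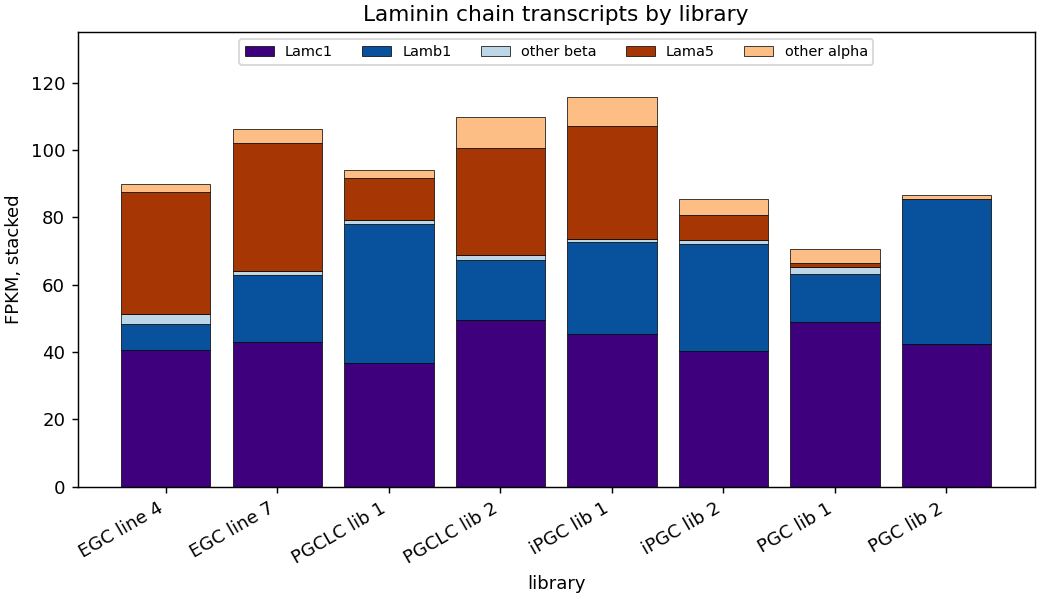
Stacked FPKM of laminin genes in each library, split into the gamma chain Lamc1, the beta chains Lamb1 and others, and the alpha chains Lama5 and others. The Lamc1 segment is between 36.8 and 49.4 FPKM in all 8 libraries, while the Lama5 segment is at 36.1 and 38.0 FPKM in EGCs and at 1.30 and 0.0140 FPKM in PGCs.

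Among the basement membrane collagens only Col18a1 was expressed throughout. Col18a1 encodes a basement membrane collagen with heparan sulfate chains whose end fragment is endostatin. It was at 8.41 and 8.47 FPKM in EGCs, 19.6 and 13.1 in PGCLCs, 24.8 and 28.7 in iPGCs, and 8.41 and 12.7 in PGCs. The iPGC values were the highest and did not overlap with those of any other group, and the EGC values were at the low end. The log2 difference of iPGCs from PGCs was 1.29 ± 0.49 (SE, interval 0.16 to 2.41, unadjusted p = 0.0296, limma adjusted p = 0.204), or 0.82 relative to the median of all tested genes. For EGCs against iPGCs it was -1.55 ± 0.49 (limma adjusted p = 0.359). None of these passed. The gene lies at chr10:77052178-77166548.

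Col4a1 and Col4a2, whose products combine in the common type IV collagen trimer, were low and varied as much within groups as between them. Col4a1 was at 2.81 and 0.301 FPKM in EGCs, 0.332 and 2.07 in PGCLCs, 3.01 and 3.16 in iPGCs, and 3.87 and 0.430 in PGCs. Col4a2 was at 3.44 and 0.0948 FPKM in EGCs, 0 and 0.631 in PGCLCs, 1.52 and 2.72 in iPGCs, and 2.18 and 0.0127 in PGCs. EGC line 4, both iPGC libraries and PGC library 1 had both genes at 1 FPKM or more, so the pair was present in 4 of 8 libraries, and Col4a1 exceeded Col4a2 in 7 of 8. The log2 differences from PGCs lay between -0.49 and 0.77 with an SE of 0.83, and none passed (lowest limma adjusted p = 0.650). Each group of EGCs, PGCLCs and PGCs held 1 library that was several times higher than its partner, and only the iPGC libraries were alike.

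The genes start head to head at chr8:11198423-11312826 (Col4a1, minus strand) and chr8:11312805-11449287 (Col4a2, plus strand), and their annotated first exons overlap by 22 bases. Their RefSeq promoter windows of 300 bases (GRCm38.p6) are shown because the 2 genes start from a common stretch in opposite directions. Capitals mark the 78 bases at chr8:11312777-11312854 that lie in both windows, once on each strand. Each window holds CCAAT and GGGCGG on at least 1 strand, and neither holds TATAAA.
Col4a1 (chr8:11312777-11313076, minus strand): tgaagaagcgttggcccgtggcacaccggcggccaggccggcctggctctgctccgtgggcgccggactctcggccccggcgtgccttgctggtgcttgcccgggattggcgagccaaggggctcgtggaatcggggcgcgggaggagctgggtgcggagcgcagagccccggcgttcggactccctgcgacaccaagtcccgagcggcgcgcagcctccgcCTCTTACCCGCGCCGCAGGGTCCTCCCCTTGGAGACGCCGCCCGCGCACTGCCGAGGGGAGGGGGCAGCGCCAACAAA
Col4a2 (chr8:11312555-11312854, plus strand): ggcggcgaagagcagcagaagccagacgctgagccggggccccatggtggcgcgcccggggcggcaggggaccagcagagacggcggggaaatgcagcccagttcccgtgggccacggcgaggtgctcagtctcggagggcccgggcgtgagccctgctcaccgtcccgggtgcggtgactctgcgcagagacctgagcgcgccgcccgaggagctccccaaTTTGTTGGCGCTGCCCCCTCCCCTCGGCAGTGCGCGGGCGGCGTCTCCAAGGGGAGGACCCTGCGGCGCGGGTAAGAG

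**Figure D3:**
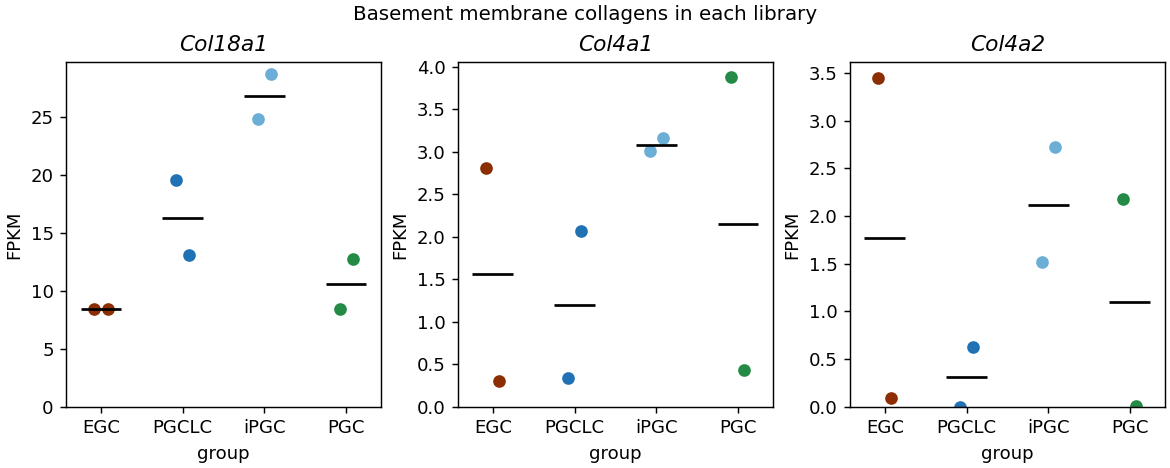
FPKM of Col18a1, Col4a1 and Col4a2 in each library (points) with the group mean (bar), EGC, PGCLC, iPGC and PGC from left to right. Col18a1 is highest in both iPGC libraries at 24.8 and 28.7 FPKM, whereas Col4a1 and Col4a2 split between the libraries of EGCs and of PGCs.

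The other chains of basement membrane collagen were near or at 0. Col4a3 and Col4a4, chains of the kidney filter, start only 71 bases apart on opposite strands, and Col4a3 reached 0.0142 FPKM in 1 library while Col4a4 was listed at 0. Col4a6 and Col4a5, 1308 bases apart in the same arrangement on chromosome X, were at 1.34 FPKM for Col4a6 in PGC library 2 and at or below 0.116 FPKM in the remaining values. Col7a1, which anchors skin to its underlying layer, and Col15a1 stayed at or below 0.383 FPKM. Summed over the 9 genes, basement membrane collagens were at 14.7 and 8.96 FPKM in EGCs, 19.9 and 15.8 in PGCLCs, 29.4 and 35.2 in iPGCs, and 14.5 and 14.5 in PGCs. The endoderm markers given above, a list whose cells make much type IV collagen and laminin, were above the EGC and PGCLC sums in iPGCs and in PGCs, and their part in these values was not tested. Of the 12 markers, 9 and 9 were listed at 0 in EGCs, 9 and 6 in PGCLCs, 5 and 1 in iPGCs, and 4 and 5 in PGCs. Of the endoderm transcription factors, Gata6 was at 3.995 FPKM in PGC library 1 and at most 0.356 elsewhere, Gata4 reached 1.82 FPKM in EGC line 7 and 0.718 or less elsewhere, and Sox17, Sox7 and Foxa2 were at or below 0.606 FPKM in every library. In PGC library 1 the sum came mainly from the secreted proteins Afp and Apoa1, at 82.6 and 53.0 FPKM. The endoderm markers at 1 FPKM or more numbered 1 and 2 in EGCs, 0 and 1 in PGCLCs, 3 and 4 in iPGCs, and 6 and 3 in PGCs. Those tested were Dab2, Ttr, Amn, Cubn and Apoa1, and 0 of these 5 passed in limma in any comparison. All 5 were lower in EGCs and in PGCLCs than in iPGCs. In each, 2 had an unadjusted limma p below 0.05, beside 10.3% and 4.68% of all genes.

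Fibrillar collagens were led by 1 library. Their sum over 11 genes was 6.21 and 2.83 FPKM in EGCs, 2.74 and 4.12 in PGCLCs, 1.53 and 2.89 in iPGCs, and 19.8 and 1.42 in PGCs. Of the 11 genes, 8 had their highest value in PGC library 1, while PGC library 2 had the lowest sum of all 8 libraries. Col1a1, the main chain of type I collagen, was at 0.0142 and 0 FPKM in EGCs, 0 and 2.01 in PGCLCs, 0.492 and 0.0380 in iPGCs, and 4.08 and 0.322 in PGCs. Both EGC values were below both PGC values, with a log2 difference of -1.36 ± 0.77 (limma adjusted p = 0.413). Col3a1, the type III chain, was listed at 0 in EGCs and iPGCs and was at 0.0232 and 0.0825 FPKM in PGCLCs, and 4.96 and 0.427 in PGCs. It reached 1 FPKM in 1 library only and was not tested. Col5a2, its neighbour 24614 bases away on the opposite strand, was also highest in PGC library 1, at 0.312 FPKM.

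Col11a1 and Col2a1, cartilage collagens, had a wider spread. Col11a1 was at 1.95 and 0.0534 FPKM in EGCs, 0.0490 and 0.0250 in PGCLCs, 0.457 and 1.06 in iPGCs, and 4.48 and 0.199 in PGCs. Col2a1 was at 0.845 and 1.80 FPKM in EGCs, 1.95 and 0.0952 in PGCLCs, 0.332 and 0.905 in iPGCs, and 2.41 and 0 in PGCs. No group stood apart for Col2a1, and for Col11a1 the PGCLC values were below those of the other groups. Col5a1, which nucleates collagen fibrils, was at 0.352 and 0.0248 FPKM in EGCs, 0.282 and 1.84 in PGCLCs, 0.109 and 0.386 in iPGCs, and 2.59 and 0.305 in PGCs. Col27a1 had a different pattern, with 3.06 and 0.689 FPKM in EGCs, 0.434 and 0 in PGCLCs, 0.0608 and 0.0659 in iPGCs, and 0 and 0.0169 in PGCs. None of the 4 fibrillar collagens tested passed in limma in any comparison, 0 had an unadjusted p below 0.05, and their log2 differences from PGCs ran from -1.36 to 0.30.

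Fibroblast or mesenchyme markers moved with the fibrillar collagens across the PGC libraries. The 10 markers summed to 2.13 and 4.57 FPKM in EGCs, 0 and 1.52 in PGCLCs, 3.29 and 1.56 in iPGCs, and 19.4 and 0.749 in PGCs. Of the 10, 7 and 6 were listed at 0 in EGCs, 10 and 5 in PGCLCs, 7 and 6 in iPGCs, and 2 and 9 in PGCs. Their part in the fibrillar values was not tested. In EGC lines 4 and 7, Thy1, a surface glycoprotein of fibroblasts and other cells, was at 0.963 and 3.56 FPKM. Of the receptors of platelet-derived growth factor, Pdgfrb was at 0.901 and 0.270 FPKM, the first of these its highest value in the 8 libraries, and Pdgfra at 0.271 and 0.00825 FPKM. Twist1 was at 0 and 0.729 FPKM. The other 6 markers, Dcn, Lum, Postn, Prrx1, Tcf21 and Meox1, were listed at 0 in both EGC lines, as were Col3a1 and Col1a2, the partner chain of Col1a1. Thy1 was the only 1 of the 10 markers tested, and it was not particular to EGCs. Its log2 differences from PGCs were 1.58 in EGCs, 0 in PGCLCs and 1.43 in iPGCs, and it differed by 0.15 between EGCs and iPGCs. None of these passed in limma.

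**Figure D4:**
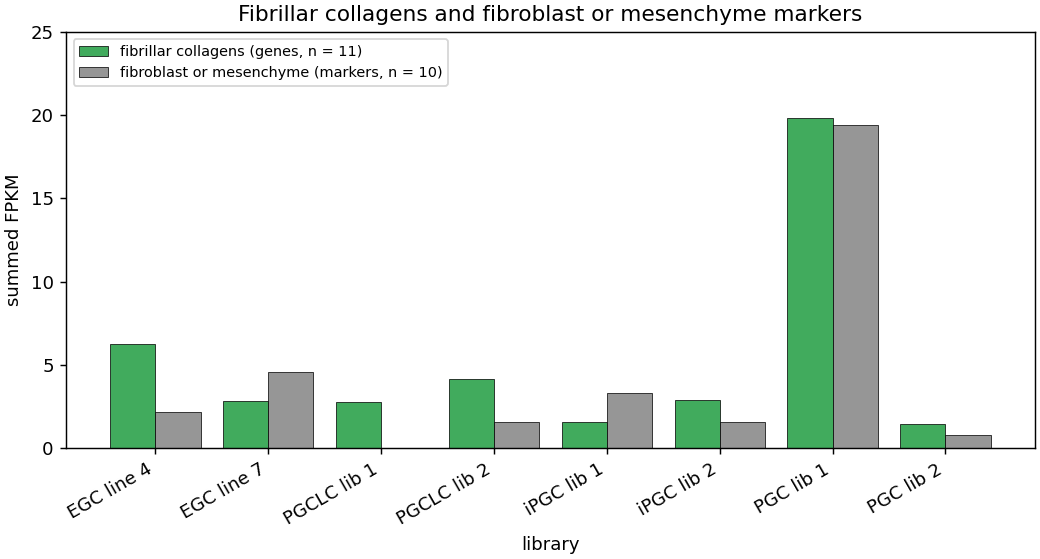
Summed FPKM of the 11 fibrillar collagens and of 10 fibroblast or mesenchyme markers in each library. PGC library 1 has 19.8 FPKM of fibrillar collagen and 19.4 FPKM of markers, and PGC library 2 has 1.42 and 0.749 FPKM.

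The 24 other collagens were mostly traces, and a few appeared in 1 library or 1 group. Col9a2 and Col9a3, chains of the fibril-associated type IX collagen, were the only ones tested. Col9a2 was at 0.166 and 0 FPKM in EGCs, 0.268 and 1.48 in PGCLCs, 1.14 and 1.91 in iPGCs, and 0 and 0.0637 in PGCs. Its iPGC values lay above those of EGCs and PGCs, with a log2 difference of 1.27 ± 0.52 from PGCs (unadjusted p = 0.0392, limma adjusted p = 0.229). Col9a3 was at 5.84e-08 and 2.15 FPKM in EGCs, 1.82 and 2.13 in PGCLCs, 3.43e-22 and 0.727 in iPGCs, and 0 in both PGC libraries, so that on the log2(FPKM + 1) scale it counts as higher in EGCs than in PGCs only through a value that is almost 0, and as overlapping in iPGCs. The log2 difference of PGCLCs from PGCs was 1.57 ± 0.64 (limma adjusted p = 0.229), and 6.07% of the exon bases of Col9a3 overlap the antisense gene Tcfl5, whose reads may not be separable without strand. Col9a1, the third chain of type IX, had another profile, with 2.80 FPKM in PGC library 2 and at most 0.190 elsewhere.

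Col26a1 was at 0.286 and 5.95 FPKM in EGCs, 0 and 0.189 in PGCLCs, 0 and 0.396 in iPGCs, and 0.747 and 0 in PGCs, so 1 EGC line set it apart. Col13a1, a transmembrane collagen of cell junctions, was at 0.590 and 0.225 FPKM in EGCs and 1.20 and 0.763 in iPGCs, and it was listed at 0 in both PGCLC and both PGC libraries. Col17a1, the transmembrane collagen of hemidesmosomes, was at 0.238 and 0.0714 FPKM in EGCs, 0 and 0.0277 in PGCLCs, 0.796 and 0.516 in iPGCs, and 0 in both PGC libraries. These low values were not tested. The 6 beaded filament genes of type VI collagen, abundant in connective tissue, were at or below 0.797 FPKM in every library. Col8a2, a network collagen, was at 1.44 FPKM in PGC library 1 and at most 0.0188 elsewhere.

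Across the 16 tested members, calls were few. Beside the 1 call in EGCs against PGCs, 0 members passed in limma in PGCLCs against PGCs, where 1.06% of all genes were called, and 0 in iPGCs against PGCs, where 0.794% were. Likewise 0 passed in EGCs against PGCLCs (0.0993% of all genes), EGCs against iPGCs (0.117%) and PGCLCs against iPGCs (0.018%), and 0 in the F test over the 4 groups (0.505%), in which Lama5 had an adjusted p of 0.0901. At an unadjusted p below 0.05 the members numbered 1 in EGCs, 2 in PGCLCs and 3 in iPGCs against PGCs, beside 17.2%, 19.5% and 19.5% of all genes. They numbered 0 in EGCs against PGCLCs, 2 in EGCs against iPGCs and 0 in PGCLCs against iPGCs, beside 13.9%, 10.3% and 4.68%. The F test had 1, beside 19.2% of all genes.

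Non-overlapping groups, counted on the log2(FPKM + 1) scale, are frequent with 2 libraries each. Both EGC libraries were above both PGC libraries for 2 members and below for 1, against 24.1% and 20% of all tested genes. For PGCLCs and PGCs the counts were 4 above and 1 below, against 33.5% and 11.8%, and for iPGCs and PGCs 5 above and 0 below, against 39.4% and 13.1%. EGCs had 3 above and 3 below PGCLCs (11.8% and 34.2% of all genes) and 2 above and 7 below iPGCs (10.8% and 39.5%), and PGCLCs had 2 above and 6 below iPGCs (17.3% and 19.6%). The median log2 difference of the 16 members from PGCs was -0.02 in EGCs, 0.07 in PGCLCs and 0.42 in iPGCs, beside medians over all tested genes of 0.07, 0.44 and 0.47. By class the medians of the 7 laminins were 0.21 in EGCs, 0.36 in PGCLCs and 0.45 in iPGCs, and those of the 4 fibrillar collagens were -0.71, -0.38 and -0.69 in the same order. The 3 basement membrane collagens had medians of -0.25, -0.38 and 0.77.

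**Figure D5:**
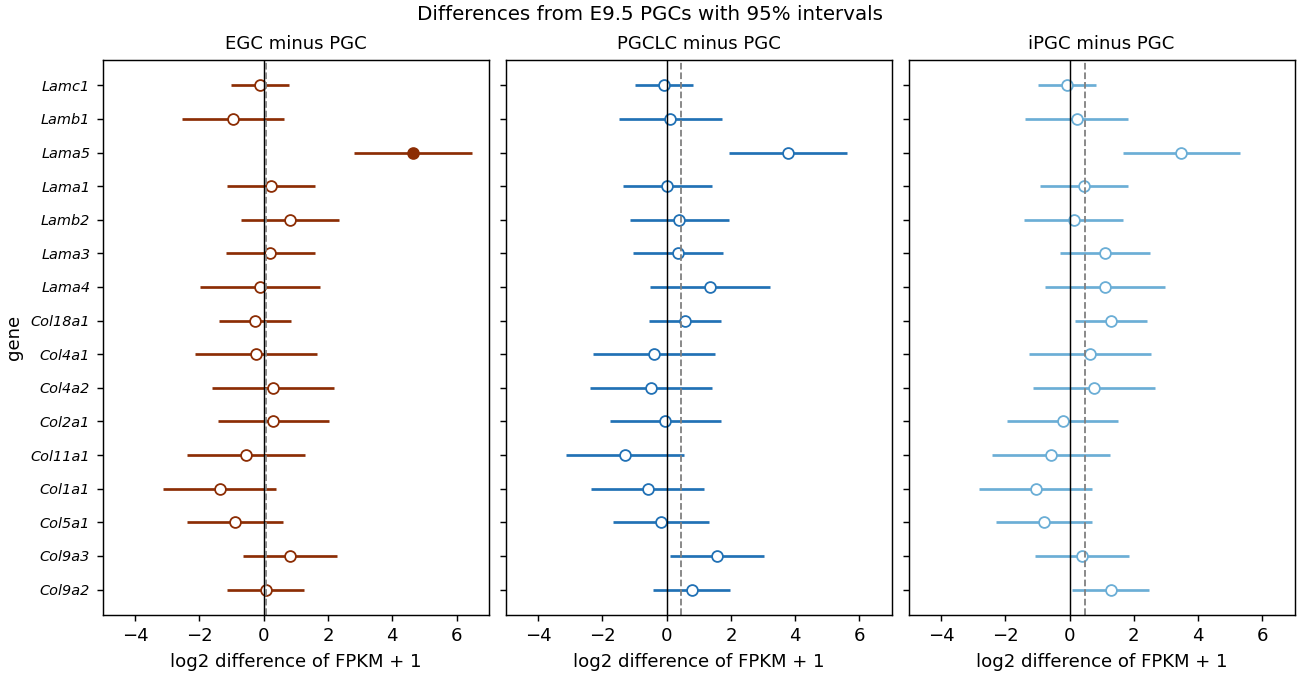
Log2 differences of FPKM + 1 from PGCs for the 16 tested members in EGCs, PGCLCs and iPGCs, with 95% intervals; the filled point passed at a limma adjusted p below 0.05 and the dashed line is the median of all tested genes. Lama5 alone has intervals that exclude 0 in all 3 panels, at 4.64, 3.78 and 3.48.

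The partners of these chains were read from lists of matrix genes outside the family. Of 17 receptors of collagens and laminins, 10 were tested, and 1 passed, the heparan sulfate carrier Sdc4, a syndecan of focal adhesions. It was 1 of 10 in PGCLCs and in iPGCs against PGCs, where 1.06% and 0.794% of all genes were called. At an unadjusted p below 0.05 the receptors numbered 3 in EGCs, 3 in PGCLCs and 4 in iPGCs against PGCs, beside the 17.2%, 19.5% and 19.5% of all genes given above, which also stand beside the counts of the lists that follow. Sdc4 had 5.22 and 7.71 FPKM in EGCs, 59.2 and 42.3 in PGCLCs, 52.0 and 54.8 in iPGCs, and 1.48 and 3.97 in PGCs. The PGCLC and iPGC values did not overlap with those of EGCs or PGCs. It rose by 3.86 ± 0.53 in PGCLCs and 3.95 ± 0.53 in iPGCs relative to PGCs (SE, limma adjusted p = 0.0273 and 0.0215), and it passed in the F test (limma adjusted p = 0.0289). Its log2 differences of -2.79 for EGCs against PGCLCs and -2.89 for EGCs against iPGCs did not pass (SE 0.53, limma adjusted p = 0.120 and 0.212). Without 1 PGCLC, iPGC or EGC library the adjusted p ran from 0.0527 to 0.215 in PGCLCs and from 0.0504 to 0.259 in iPGCs, so each of these 6 libraries was needed for both calls. Dag1, the dystroglycan that binds laminin, stayed between 19.8 and 34.9 FPKM. Itga6, the alpha subunit of a laminin integrin, was at 12.8 and 18.6 FPKM in EGCs, 22.6 and 26.3 in PGCLCs, 36.3 and 23.5 in iPGCs, and 12.3 and 0.759 in PGCs, and it did not pass (lowest limma adjusted p = 0.154).

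Among 21 other matrix glycoproteins and proteoglycans, 14 were tested and 0 passed in limma in any comparison, with 6 at an unadjusted p below 0.05 in each comparison with PGCs, 3 in EGCs against PGCLCs, 1 in EGCs against iPGCs and 2 in PGCLCs against iPGCs. In the F test 8 of the 14 had an unadjusted p below 0.05, beside 19.2% of all genes, and 0 passed in limma after adjustment. Fn1, fibronectin, was high throughout, with 50.2 and 41.7 FPKM in EGCs, 51.1 and 42.8 in PGCLCs, 50.1 and 41.7 in iPGCs, and 47.7 and 68.5 in PGCs. Nid2, which bridges laminin and type IV collagen, was at 30.5 and 29.0 FPKM in EGCs, 25.6 and 39.7 in PGCLCs, 36.6 and 38.7 in iPGCs, and 47.8 and 77.5 in PGCs. Both PGC values were the highest, but no difference passed (lowest limma adjusted p = 0.293). Sparc, a collagen-binding matrix protein, was at 13.3 and 36.6 FPKM in EGCs, 144 and 118 in PGCLCs, 103 and 84.5 in iPGCs, and 76.6 and 124 in PGCs. Its log2 difference was -2.09 ± 0.53 in EGCs against PGCs (limma adjusted p = 0.106). Hspg2, perlecan, was picked out after its values were seen, at 12.0 and 39.9 FPKM in EGCs, 4.34 and 8.25 in PGCLCs, 29.5 and 29.2 in iPGCs, and 2.67 and 3.73 in PGCs, and it did not pass (limma adjusted p = 0.115 in EGCs and 0.0802 in iPGCs against PGCs). Npnt, Fbn2 and Fras1, picked out in the same way, were highest in both PGC libraries instead. Npnt was at 0.175 and 0.103 FPKM in EGCs, 0.550 and 5.89 in PGCLCs, 0.693 and 3.42 in iPGCs, and 16.8 and 19.3 in PGCs. Of the 14, 4 lay above and 5 below PGCs without overlap in EGCs. The counts were 6 and 5 in PGCLCs, and 6 and 4 in iPGCs. Shares over all tested genes were 24.1% and 20%, 33.5% and 11.8%, and 39.4% and 13.1%.

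Collagen-modifying enzymes and chaperones showed no call relative to PGCs either, with 18 of 29 tested and 0 passing in limma, and 3 in EGCs, 4 in PGCLCs and 3 in iPGCs against PGCs at an unadjusted p below 0.05. P4hb, a subunit of prolyl hydroxylase and a general disulfide isomerase, was at 84.5 and 73.2 FPKM in EGCs, 329 and 220 in PGCLCs, 188 and 191 in iPGCs, and 132 and 235 in PGCs. The EGC values were the lowest, with a log2 difference of -1.15 ± 0.41 from PGCs (limma adjusted p = 0.206). Ppib, a cyclophilin of collagen folding, was at 20.5 and 26.3 FPKM in EGCs, 53.3 and 33.2 in PGCLCs, 53.2 and 40.2 in iPGCs, and 11.6 and 45.1 in PGCs. Plod2, a lysyl hydroxylase, was at 34.8 and 16.1 FPKM in EGCs, 3.25 and 60.1 in PGCLCs, 11.2 and 8.98 in iPGCs, and 3.16 and 4.76 in PGCs.

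Degrading enzymes and regulators likewise gave no call relative to PGCs. Of 12 matrix proteases and inhibitors, 11 were tested and 0 passed in limma, with 1, 2 and 1 at an unadjusted p below 0.05 in EGCs, PGCLCs and iPGCs against PGCs. Mmp11, a stromal protease, was the highest at 34.2 and 6.28 FPKM in EGCs, 6.67 and 17.8 in PGCLCs, 11.4 and 11.9 in iPGCs, and 3.87 and 3.39 in PGCs. Mmp2, a gelatinase that cuts type IV collagen, was at 5.31 and 1.45 FPKM in EGCs, 3.16 and 0.569 in PGCLCs, 3.57 and 4.23 in iPGCs, and 5.15 and 0 in PGCs. Timp1, an inhibitor of matrix metalloproteases, stayed between 0.295 and 8.48 FPKM. Of 15 regulators of matrix genes, from TGF-beta signalling and from transcription factors such as GATA and SOX, 5 were tested and 0 passed in limma. The 5 were Tgfb1, Tgfbr1, Ctgf, Smad3 and Runx2, with 1, 1 and 2 at an unadjusted p below 0.05 in the same order. Smad3, a TGF-beta signal transducer, was between 5.23 and 38.5 FPKM and its receptor gene Tgfbr1 between 2.12 and 7.36 FPKM, with no group apart from all others. Ctgf, a matrix protein induced by TGF-beta, was at 1.57 and 6.39 FPKM in EGCs, 3.88 and 6.82 in PGCLCs, 10.1 and 13.5 in iPGCs, and at most 0.0256 in PGCs, with a log2 difference of 3.65 ± 0.69 in iPGCs (limma adjusted p = 0.0577).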

How the data were processed

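Per the labels' protocols, RNA of small cell numbers was amplified (Ovation system) with spike-in RNA, and the 8 libraries were read from 1 end (50 bases) in 2 lanes. The authors deposited 1 table, in FPKM per gene and library. TopHat2, Cufflinks and the GRCm38 (mm10) genome are named in the submitters' processing notes, and their versions, the annotation and strand settings were not given in the sources used here. Cufflinks estimates can be 0 without proof of absence and divide reads shared by overlapping genes. The depth was estimated from the lowest length-scaled values, taken as 1 read each, and precision for low genes is limited by it.

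Of 20171 entries, 18 duplicates were dropped. Gene coordinates are from the GENCODE annotation of GRCm38. The 11083 genes that reached 1 FPKM in at least 2 libraries entered limma 3.58.1 (R 4.3.3, variance trend, robust) as log2(FPKM + 1), and all 8 libraries shared 1 estimate of the spread (4 residual degrees of freedom, median prior 4.53). Tests were two-sided, with Benjamini-Hochberg adjustment over all tested genes at 0.05. The log2 scale with a pseudocount of 1 understates the change of low genes. The limma step was tested on simulated data. Alternatives were other pseudocounts, filters and scalings, fits to the compared groups alone, fits with a replicate block, and fits that left out 1 library.

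The members and lists were chosen with earlier results of these data known. Values are given for every member called in a comparison, the 3 highest of each class, and members with a group mean of 10 FPKM, and, of other lists, for called genes or the 3 highest. Hspg2, Npnt, Fbn2, Fras1, and members given beyond this rule such as Col13a1 and Col17a1, were chosen after their values were seen. RefSeq promoter windows were available for 40 of the 55 members. The own values of 1 member are not reported here.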

Additional observations from a re-analysis of the deposited data

How the results depend on the processing

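No called difference of a member or of a gene named from the matrix lists changed sign under any alternative. Single cell type markers were not followed through the alternatives. The only call of a collagen or laminin gene, Lama5 in EGCs against PGCs, held with a filter at 5 FPKM and with equal library medians (adjusted p = 0.0398 and 0.0473). It was lost, leaving 0 members called, with a pseudocount of 0.1 or 5, no filter, quantile normalization and only the 2 groups compared, and in every leave-one-out fit (0 to 0). Across the 15 alternatives the adjusted p ran from 0.0398 to 0.392 and the log2 difference from 2.90 to 6.54.

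Calls over all genes moved more. In EGCs against PGCs (82) there were 31 with a pseudocount of 5, 14 with no filter and 0 with only the 2 groups compared. In iPGCs against PGCs (88) there were 166 and 34 with pseudocounts of 0.1 and 5, 18 with no filter, 40 with equal medians, 45 with quantile normalization and 0 with only the 2 groups. In PGCLCs against PGCs (117) the counts were 183, 32, 0, 50, 36 and 0 in the same order. In PGCLCs against iPGCs (2) they were 1 with a pseudocount of 5, 0 with no filter, 1 with either scaling and 4 with only the 2 groups. No filter gave 8 in EGCs against iPGCs (13) and 7 in EGCs against PGCLCs (11). The F test (56) gave 98 and 31 with pseudocounts of 0.1 and 5 and 12 with no filter. Leaving out 1 library gave 7 to 107, 5 to 222, 0 to 289, 0 to 5, 5 to 17, 0 to 39 and 10 to 100 calls for EGCs, iPGCs and PGCLCs against PGCs, PGCLCs and EGCs against iPGCs, EGCs against PGCLCs and the F test. The share of higher calls was 58 of 82, 83 of 88 and 104 of 117 in EGCs, iPGCs and PGCLCs against PGCs. It was 77 of 122, 31 of 40 and 36 of 50 with equal medians, and 57 of 94, 37 of 45 and 29 of 36 with quantile normalization.

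Deviations from the group means had correlations of 0.01, -0.03 and 0.06 between libraries with the same number. With 2 libraries a group, these values cannot show whether the numbers pair the libraries. With a replicate block, 41, 27, 1 and 36 genes were called in iPGCs and PGCLCs against PGCs, PGCLCs against iPGCs and the F test, and 0 members in each. Sdc4 was called in 8 of 16 alternatives in iPGCs and 7 of 16 in PGCLCs against PGCs; these alternatives were chosen after seeing the data. With 2 libraries a group, the smallest called log2 difference from PGCs was 2.44, and it was 3.76 to 6.60 in the comparisons without PGCs. In the simulated data, log2 changes of 4 were called in 49.2% to 54% of cases and changes of 2 in 2.8% to 7.2%. Changes of a collagen or laminin gene, also some above 2.44, may therefore have gone uncalled. At the depth of iPGC library 1 values of the lowest genes rest on very few reads.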
